A study of Homo sapiens with 32 samples.

Results

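Kruppel-like factor (KLF) transcripts were examined in LNCaP cells, an androgen-responsive human prostate cancer line of lymph node origin. The 10 genes described were *KLF2*, *KLF3*, *KLF4*, *KLF5*, *KLF6*, *KLF7*, *KLF9*, *KLF10*, *KLF11*, and *KLF13*, taken by symbol from the 25498 genes of the expression tables. All 10 passed the filter on low counts, as did 16995 genes in all. The 32 polyA RNA-Seq libraries formed 8 groups of 4, and each group held biological replicates 1 and 2 in each of 2 batches. The labels name no engineered allele in any group. Cells of 1 group stayed in their growth serum, fetal bovine serum (FBS). Those of the rest were switched to charcoal-stripped serum (CSS), which is depleted of steroid hormones, and were either left without ligand (CSS) or given a ligand, EGF or NRG-1, at 100 ng/mL and collected at 5 minutes, at 1 hour, or at 4 hours. Every ligand group was therefore also androgen-depleted, and every comparison of a ligand with CSS used the same 4 CSS libraries. The labels give no collection time for these libraries. In those comparisons a longer time in CSS therefore cannot be told apart from the ligand. EGF is a ligand of EGFR, NRG-1 binds HER3 and HER4, and each of these receptors can pair with HER2.

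KLFs are transcription factors that bind GC-rich and CACCC-type DNA through C2H2 zinc fingers at their C terminus. Their N-terminal regions differ and divide the family: *KLF9*, *KLF10*, *KLF11*, and *KLF13* encode factors that recruit the SIN3A corepressor, *KLF3* encodes a repressor that binds CtBP proteins, and *KLF2*, *KLF4*, *KLF5*, *KLF6*, and *KLF7* encode factors known mainly as activators. Several KLF genes are immediate early or delayed early genes of growth factor signaling, and *KLF4*, *KLF5*, and *KLF6* have been studied in prostate epithelium for effects on proliferation.

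Library totals ranged from 63822654 to 92401724 expected counts. The luminal prostate genes *KLK3*, *FOLH1*, *HOXB13*, *KRT8*, and *KRT18* were present in every library. The basal genes *KRT5* and *TP63* did not exceed 0.03 TPM, and neither did *CD3E*, *PECAM1*, *CDH5*, *COL1A2*, and *DCN*. *PTPRC* reached at most 0.04 TPM, *VWF* 3.1 TPM, *COL1A1* 5 TPM, *KRT14* 2.17 TPM, and *CD68* 16.2 TPM. The ligand response was checked with *EGR1*, an immediate early gene, which was higher by 10.03 on the log2 scale after 1 hour of EGF and by 10.07 after 1 hour of NRG-1. The labels call the replicates biological without naming separate cultures, so P values measure the spread between these libraries.

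In CSS the members spanned a wide range of levels, compared here per transcript length as TPM (transcript abundance scaled for length and library total). *KLF9* was the most abundant at 29.2 ± 3.90 TPM (SD, n = 4), followed by *KLF10* at 21.4 ± 1.04 and *KLF3* at 15.8 ± 1.60. *KLF13* (11.8 ± 1.46) and *KLF11* (9.73 ± 1.61) came next, and their library ranges overlapped. *KLF6* lay at 6.73 ± 0.369 TPM. The lowest were *KLF4* at 2.43 ± 0.262, *KLF2* at 1.78 ± 0.221, *KLF5* at 1.37 ± 0.194, and *KLF7* at 0.140 ± 0.0271 TPM, where *KLF2* and *KLF5* overlapped. The 10 members together amounted to 100.5 ± 9.79 TPM.

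After 1 hour of ligand the order changed. The summed level of the members was 343.5 ± 8.66 TPM with EGF and 277.3 ± 32.1 TPM with NRG-1 (n = 4 each). *KLF10* held 59.99% ± 2.73 of the sum with EGF and 61.9% ± 2.46 with NRG-1, against 21.4% ± 1.36 in CSS. *KLF9*, which held 29.0% ± 1.26 in CSS, held 10.6% ± 1.15 with EGF and 11.0% ± 1.61 with NRG-1. At 4 hours the sums were 128 ± 4.74 TPM with EGF and 99.4 ± 11.8 TPM with NRG-1, and *KLF10* was again the leading member, at 50.2% ± 3.27 and 37.5% ± 2.73. In FBS the sum was 89.8 ± 19.8 TPM, and *KLF10* and *KLF9* had overlapping library ranges at 22.5 ± 4.18 and 21.6 ± 6.09 TPM.

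**Figure D1:**
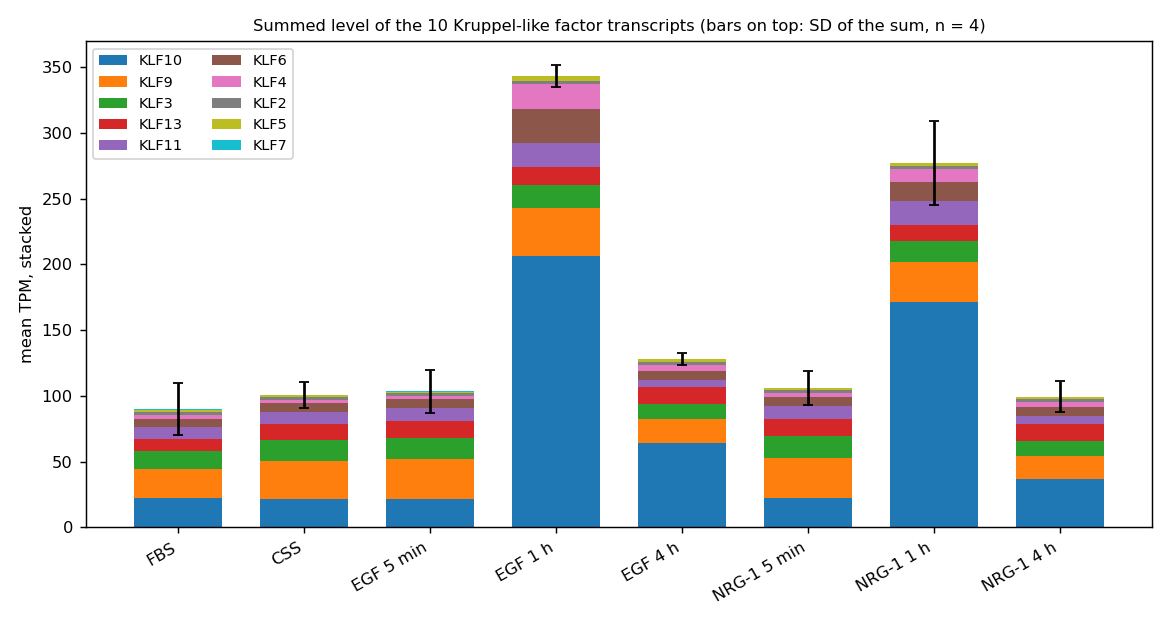
Mean TPM of the 10 KLF transcripts stacked for each of the 8 groups, with bars for the SD of the summed level (n = 4 libraries). The sum stood at 343.5 TPM after 1 hour of EGF and 277.3 TPM after 1 hour of NRG-1, against 100.5 TPM in CSS, and *KLF10* made up most of the height at 1 hour.

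Levels of a single gene are given below as CPM (library-size-scaled counts), and the 4 values of a group are listed as replicates 1 and 2 of batch 1 and then replicates 1 and 2 of batch 2. Fold changes come from the quasi-likelihood test of edgeR over all 32 libraries with a batch term, and adjusted P values were corrected by the Benjamini-Hochberg method over the 16995 genes. A gene with an adjusted P below 0.05 is called changed, and one that also exceeds 1 on the log2 scale in either direction is called a differentially expressed gene (DEG).

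At 5 minutes no member passed the edgeR test with either ligand (0 of 10 with EGF, beside 0.00588% of all tested genes, and 0 of 10 with NRG-1, beside 0%). No member had an unadjusted P below 0.05 at this time, and DESeq2 likewise called 0. The log2 fold changes of the members lay between -0.04 and 0.19 with EGF and between -0.02 and 0.22 with NRG-1. *KLF2* had the highest value with both ligands, and its NRG-1 libraries (1.80, 1.75, 1.79, and 1.75 CPM) all lay above the CSS libraries (1.46, 1.68, 1.505, and 1.43 CPM). It was the 1 member higher without overlap with NRG-1, beside 0 with EGF, and the share of all tested genes is not given here. It is named for its extreme value, and no response is read from it. The *KLF2* difference had an unadjusted P of 0.0792 and an adjusted P of 1 with edgeR.

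At 1 hour of EGF 7 of the 10 members rose and 0 fell, against 6% and 3.51% of all tested genes in those directions, and 4 members were DEGs (1.72% of all tested genes). NRG-1 at the same time raised 6 and lowered 0, against 4.45% and 2.28%, and 3 were DEGs (0.989%). The members were chosen with earlier results of these data known, so these counts serve as a description. Of the 6 other KLF genes tested, 1 rose at 1 hour with each ligand. The median log2 fold change of the members was 0.75 with EGF and 0.57 with NRG-1, while the median of all tested genes was -0.01 and 0.00. All 4 libraries lay above all 4 CSS libraries for 9 members with EGF (7.46% of all tested genes) and for 6 with NRG-1 (4.98%). No member fell at 1 hour, at an unadjusted P below 0.05 or by DESeq2 either, so none was early repressed, and the decreases described below were seen at 4 hours. In bulk RNA a lower value cannot tell fewer expressing cells from less RNA per cell.

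**Figure D2:**
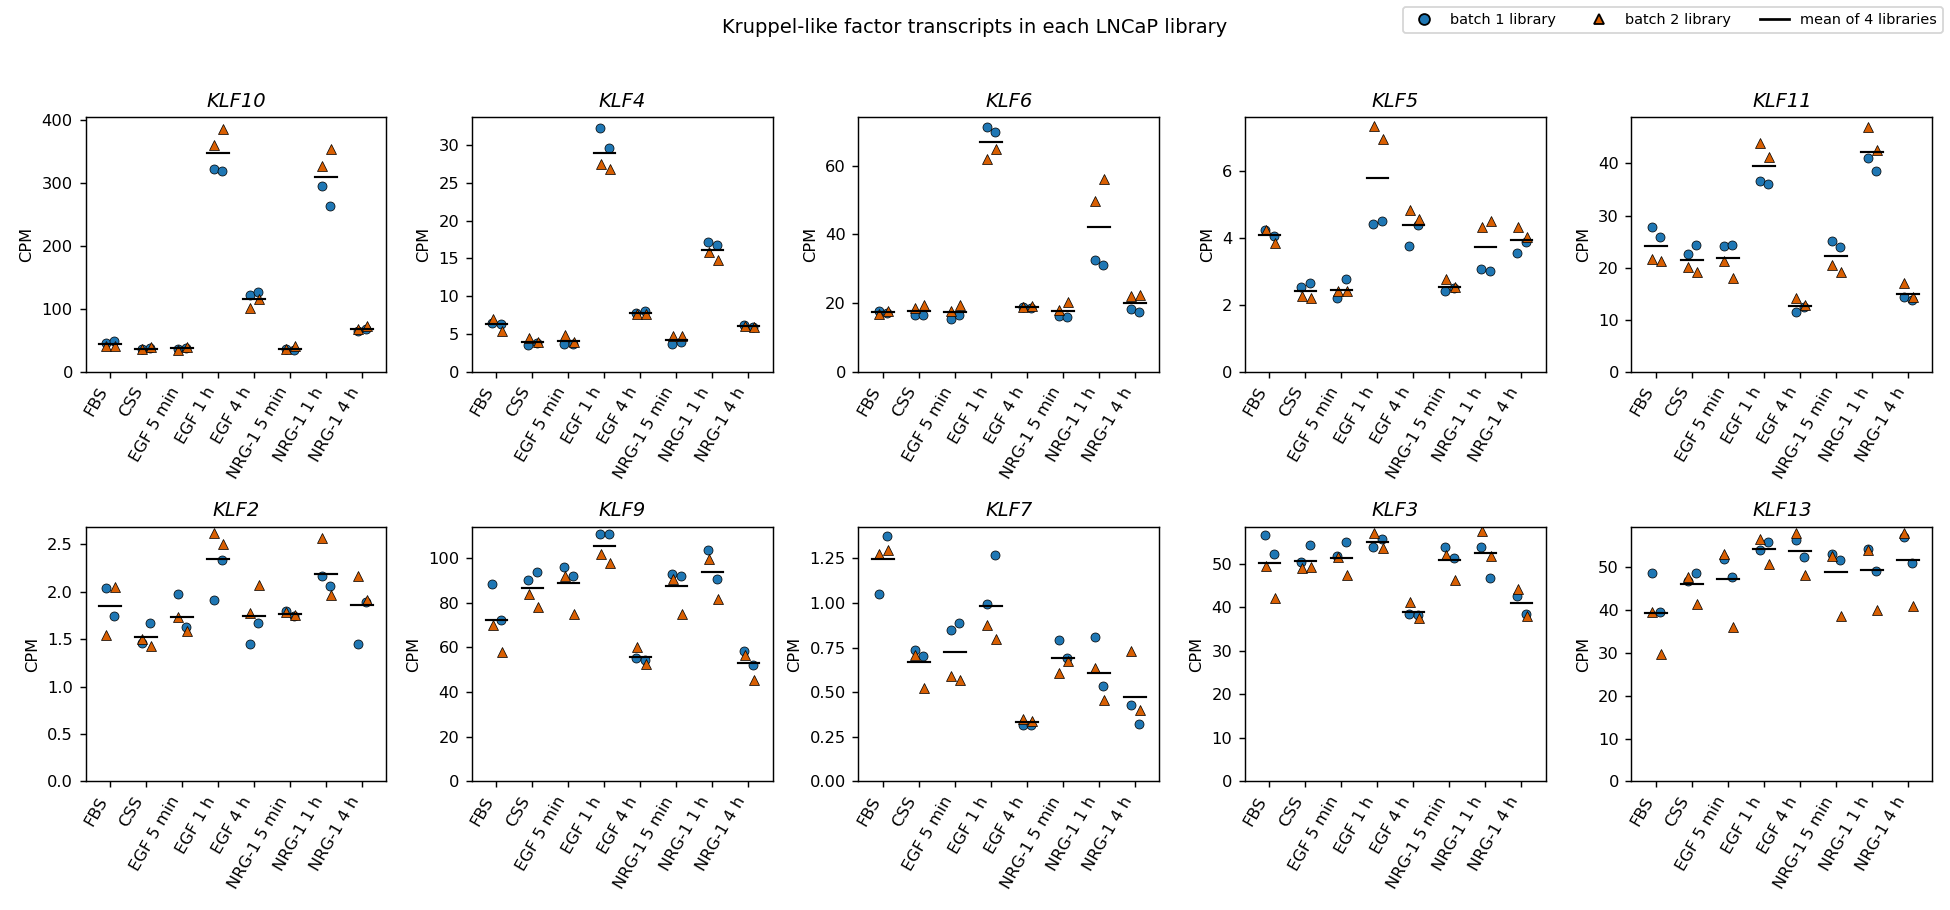
CPM of each KLF transcript in every library (circles, batch 1; triangles, batch 2; line, mean of 4) across the 8 groups, with each vertical axis starting at 0. *KLF10* lay between 319 and 387 CPM after 1 hour of EGF against 36.0 to 38.9 CPM in CSS, whereas *KLF9* fell at 4 hours to between 45.6 and 60.2 CPM with either ligand.

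*KLF10*, first described as TGF-β-inducible early gene 1, encodes a SIN3A-recruiting repressor and had the largest change of the members. The CSS libraries held 36.0, 37.5, 36.3, and 38.9 CPM. After 1 hour of EGF the values were 323, 319, 361, and 387 CPM, and after 1 hour of NRG-1 they were 296, 264, 327, and 355 CPM. Every stimulated library was far above every CSS library, while the EGF and NRG-1 ranges overlapped. The log2 fold change was 3.22 (SE 0.09, adjusted P = 1.92e-21), or 9.33-fold, with EGF and 3.06 (SE 0.09, adjusted P = 1.03e-20), or 8.34-fold, with NRG-1.

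*KLF11*, its close relative and also TGF-β inducible, rose less. The CSS values of 22.6, 24.4, 20.1, and 19.2 CPM compared with 36.5, 36.0, 44.0, and 41.2 CPM after EGF and 41.0, 38.5, 47.0, and 42.5 CPM after NRG-1. All 8 stimulated libraries exceeded the CSS libraries, with batch 2 above batch 1 for each ligand and below it in CSS. The log2 fold change was 0.88 (SE 0.11, adjusted P = 3.19e-07) with EGF and 0.98 (SE 0.11, adjusted P = 6.98e-08) with NRG-1. Within batch 1 alone the values were 0.64 and 0.76, and within batch 2 alone 1.12 and 1.19.

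The other pair of SIN3A-binding members, *KLF9*, a hormone-responsive gene that steroid and thyroid hormone receptors can induce, and *KLF13*, known as a regulator of chemokine expression in T cells, stood near their CSS levels. *KLF9* held 90.1, 93.7, 83.9, and 78.2 CPM in CSS and 111, 111, 102, and 97.9 CPM after 1 hour of EGF. The EGF libraries lay above the CSS libraries by a small margin, and *KLF9* rose by 0.28 on the log2 scale (SE 0.09, adjusted P = 0.0366). This call was lost when any single EGF or CSS library was left out (adjusted P 0.0558 to 0.118), without the batch term (0.129), in each batch alone (0.0574 and 0.653), and in the TPM fits (0.301 to 0.427). With NRG-1 the *KLF9* log2 fold change was 0.12 (SE 0.09, adjusted P = 0.553).

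*KLF13* held 46.8, 48.6, 47.7, and 41.5 CPM in CSS, 53.9, 55.9, 56.6, and 50.8 CPM after 1 hour of EGF, and 54.2, 49.2, 54.1, and 40.1 CPM after NRG-1. The EGF libraries were all higher than CSS, whereas NRG-1 overlapped CSS. The log2 fold change of 0.24 with EGF (SE 0.12) did not pass the test (adjusted P = 0.305). It passed with a replicate block (0.24, adjusted P = 0.0101) and when only the groups compared were fitted (0.25, adjusted P = 0.00764). Replicate 2 of batch 2 was the lowest library in 8 of 8 groups for *KLF13* and also for *KLF9*, a difference that the replicate block takes into account. With NRG-1 the *KLF13* log2 fold change was 0.10 (SE 0.12, adjusted P = 0.769).

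Among the activators, *KLF4*, a factor used to reprogram somatic cells to pluripotency and a brake on epithelial proliferation, rose most. Its CSS libraries held 3.60, 3.81, 4.44, and 3.90 CPM. EGF for 1 hour gave 32.2, 29.5, 27.5, and 26.8 CPM, and NRG-1 gave 17.1, 16.8, 15.9, and 14.8 CPM. The 3 groups did not overlap, and EGF was the highest. The log2 fold change was 2.88 (SE 0.09, adjusted P = 6.15e-20), or 7.36-fold, with EGF and 2.03 (SE 0.09, adjusted P = 2.88e-16), or 4.10-fold, with NRG-1.

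*KLF6*, studied as a tumor suppressor in prostate, held 16.5, 16.7, 18.7, and 19.4 CPM in CSS. After 1 hour of EGF it held 71.2, 69.7, 61.8, and 64.9 CPM, and after 1 hour of NRG-1 32.5, 31.0, 49.6, and 56.1 CPM. Neither stimulated group overlapped CSS, but the NRG-1 libraries separated by batch, with batch 2 nearer to the EGF values. The log2 fold change was 1.92 (SE 0.11, adjusted P = 2.05e-14) with EGF and 1.23 (SE 0.11, adjusted P = 6.28e-10) with NRG-1. Within batch 1 alone the NRG-1 change was 0.94, and within batch 2 alone it was 1.47.

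*KLF5*, which promotes proliferation in many epithelia, held 2.52, 2.65, 2.26, and 2.20 CPM in CSS. The 1 hour values were 4.41, 4.50, 7.33, and 6.93 CPM with EGF and 3.07, 3.02, 4.32, and 4.49 CPM with NRG-1. All 8 stimulated libraries were higher than CSS, and in both ligand groups batch 2 was above batch 1. *KLF5* rose by 1.25 on the log2 scale with EGF (SE 0.13, adjusted P = 9.69e-09) and by 0.62 with NRG-1 (SE 0.13, adjusted P = 0.00135). The NRG-1 call was lost in batch 1 alone (0.24, adjusted P = 0.321) and in limma fits of log2 TPM (0.33 with a pseudocount of 1, adjusted P = 0.0898).

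A test of the ligand effect in batch 2 minus that in batch 1, chosen after seeing the data, passed for *KLF5* with EGF at 1 hour (log2 difference 0.89, SE 0.14, adjusted P = 0.0356 over all genes, beside 0.0118% of all tested genes called). The within-batch changes were 0.80 in batch 1 and 1.68 in batch 2. For *KLF5* with NRG-1 the corresponding difference was 0.74 (adjusted P = 0.166), and for *KLF6* with NRG-1 it was 0.53 (adjusted P = 0.114). No other member passed this test with either ligand at 1 or 4 hours, where it called 0.00588% of all tested genes for NRG-1 at 1 hour, 0.141% for EGF at 4 hours, and 0.0883% for NRG-1 at 4 hours.

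**Figure D3:**
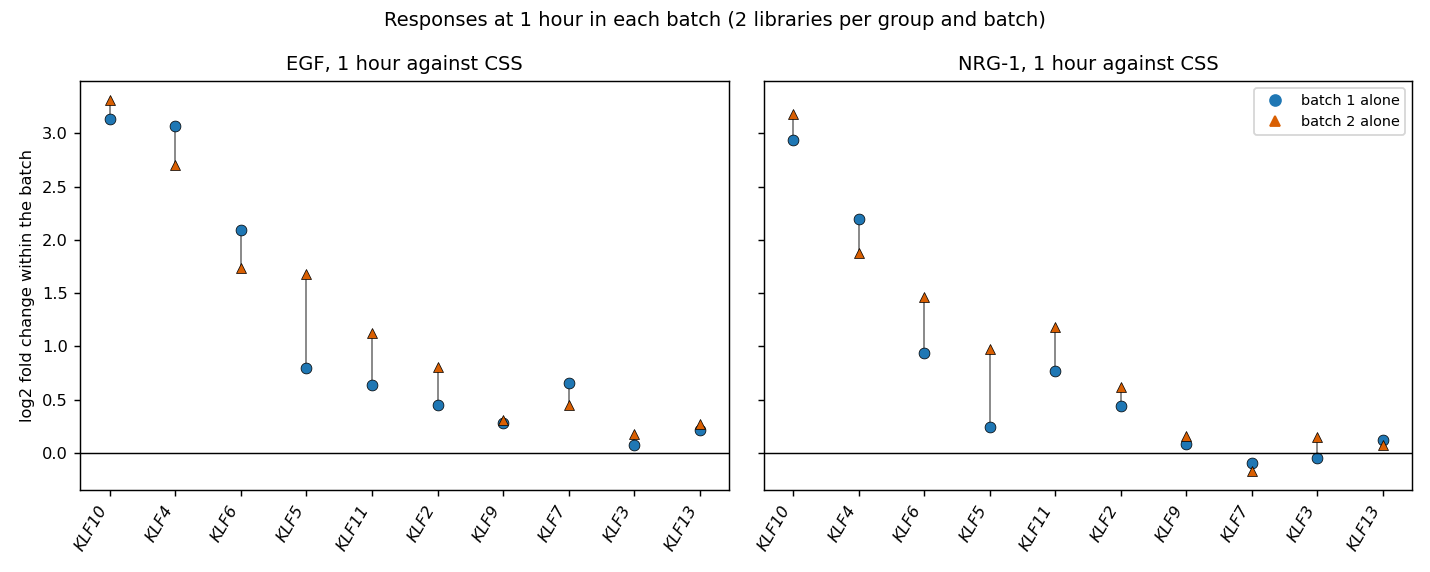
Log2 fold change of each KLF transcript at 1 hour against CSS, fitted within batch 1 alone (circles) and batch 2 alone (triangles), with 2 libraries per group and batch. *KLF5* showed the widest gap, 0.80 against 1.68 with EGF and 0.24 against 0.98 with NRG-1, while *KLF10* lay above 2.9 in both batches.

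*KLF2*, a gene of vascular and lymphocyte quiescence, held 1.46, 1.68, 1.505, and 1.43 CPM in CSS, 1.91, 2.34, 2.62, and 2.50 CPM after 1 hour of EGF, and 2.17, 2.07, 2.57, and 1.96 CPM after NRG-1. Both stimulated groups lay above CSS and overlapped each other. It rose by 0.62 on the log2 scale with EGF (SE 0.12, adjusted P = 0.000446) and by 0.53 with NRG-1 (SE 0.12, adjusted P = 0.00403). The EGF call was lost in batch 1 alone (0.45, adjusted P = 0.134), and the NRG-1 call was lost in each batch alone (adjusted P 0.156 and 0.135) and in the 3 TPM fits (0.116 to 0.186).

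*KLF7*, best known for axon outgrowth, was the lowest member, with 43 to 64 expected counts per CSS library. It held 0.738, 0.702, 0.708, and 0.522 CPM in CSS, 0.993, 1.27, 0.879, and 0.796 CPM after 1 hour of EGF, and 0.807, 0.536, 0.634, and 0.458 CPM after NRG-1. The EGF libraries were above CSS and the NRG-1 libraries overlapped it. The EGF log2 fold change of 0.55 (SE 0.19) had an adjusted P of 0.0648, which was 0.0387 with the replicate block and 0.0351 with DESeq2, and the NRG-1 value was -0.14 (SE 0.20, adjusted P = 0.802).

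*KLF3*, the CtBP-binding repressor of the group, held 50.3, 54.2, 49.0, and 49.3 CPM in CSS. The 1 hour ranges, 53.6 to 57.1 CPM with EGF and 46.8 to 57.4 CPM with NRG-1, overlapped CSS. Its log2 fold change was 0.12 (SE 0.07, adjusted P = 0.413) with EGF and 0.05 (SE 0.07, adjusted P = 0.800) with NRG-1.

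**Figure D4:**
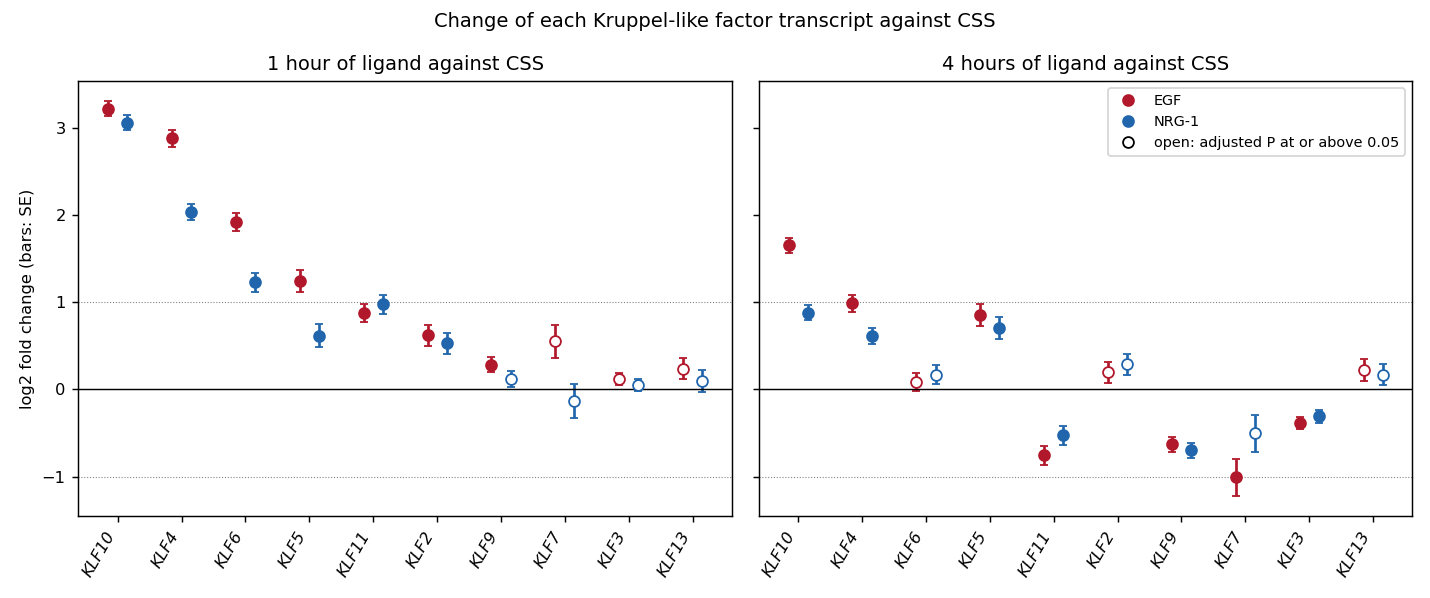
Log2 fold change against CSS (bars, SE) of each KLF transcript at 1 hour (left) and 4 hours (right) of EGF (red) or NRG-1 (blue), with open symbols for an adjusted P of 0.05 or more and dotted lines at 1 and -1. At 1 hour no filled symbol lies below 0, and at 4 hours *KLF11*, *KLF9*, and *KLF3* lie below 0 with both ligands, as does *KLF7* with EGF at -1.01.

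At 4 hours members were called in both directions. With EGF 3 of 10 rose and 4 fell, against 24.6% of all tested genes in each direction, and with NRG-1 3 rose and 3 fell, against 21.6% and 21%. These shares were high for all genes, and nothing is read from the members' counts against them. The DEGs were 2 with EGF (9.56% of all tested genes), *KLF10* upward and *KLF7* downward, and 0 with NRG-1 (7.41%). Groups did not overlap with CSS for 3 higher and 4 lower members with EGF (21.5% and 19.7% of all tested genes) and for 3 higher and 3 lower with NRG-1 (16% and 14.7%). The median log2 fold change of the members was 0.14 with EGF and 0.17 with NRG-1, against -0.02 and -0.01 over all tested genes.

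*KLF10* remained above CSS at 4 hours, at 122, 127, 102, and 115 CPM with EGF and 64.4, 69.0, 68.4, and 72.3 CPM with NRG-1. The EGF libraries were all higher than the NRG-1 libraries, which in turn were all higher than CSS. The log2 fold change was 1.65 (SE 0.08, adjusted P = 1.29e-15) with EGF and 0.88 (SE 0.08, adjusted P = 9.06e-10) with NRG-1.

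*KLF4* showed the same order at 4 hours, with 7.85, 8.05, 7.60, and 7.70 CPM after EGF and 6.17, 5.94, 6.09, and 5.94 CPM after NRG-1. It was above CSS by 0.99 (SE 0.09, adjusted P = 4.71e-10) and 0.62 (SE 0.09, adjusted P = 3.55e-06) on the log2 scale. *KLF5* held 3.75, 4.37, 4.82, and 4.56 CPM after EGF and 3.55, 3.86, 4.31, and 4.01 CPM after NRG-1. The *KLF5* libraries lay above CSS in both groups, by 0.86 (SE 0.13, adjusted P = 1.67e-06) with EGF and 0.70 (SE 0.13, adjusted P = 4.42e-05) with NRG-1.

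*KLF6* and *KLF2* did not pass the test at 4 hours. *KLF6* held 18.5 to 19.2 CPM with EGF and 17.5 to 22.3 CPM with NRG-1, and its log2 fold changes were 0.09 (SE 0.11, adjusted P = 0.536) and 0.17 (SE 0.11, adjusted P = 0.207). *KLF2* had log2 fold changes of 0.19 (SE 0.12, adjusted P = 0.201) and 0.29 (SE 0.12, adjusted P = 0.0619). *KLF6* passed with EGF in batch 1 alone (adjusted P = 0.0251). With NRG-1 *KLF6* passed when only the groups compared were fitted (adjusted P = 0.0367). *KLF2* passed with NRG-1 without replicate 2 of batch 1 of CSS (adjusted P = 0.0363) and without replicate 1 of batch 1 of NRG-1 (0.0164).

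The SIN3A-binding *KLF9* and *KLF11* and the CtBP-binding *KLF3* fell at 4 hours. *KLF9* held 55.1, 54.6, 60.2, and 52.8 CPM with EGF and 58.3, 52.2, 56.8, and 45.6 CPM with NRG-1. None of these 8 libraries reached the lowest CSS value of 78.2 CPM. *KLF9* fell by 0.63 on the log2 scale with EGF (SE 0.09, adjusted P = 7.57e-07) and by 0.70 with NRG-1 (SE 0.09, adjusted P = 1.89e-07).

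*KLF11*, which had risen at 1 hour, held 11.6, 12.4, 14.1, and 12.8 CPM with EGF and 14.4, 13.9, 17.0, and 14.4 CPM with NRG-1 at 4 hours. All 8 libraries lay below the lowest CSS library, at 19.2 CPM. It fell by 0.76 on the log2 scale with EGF (SE 0.11, adjusted P = 9.97e-07) and by 0.53 with NRG-1 (SE 0.11, adjusted P = 0.000199). The NRG-1 call was lost in batch 2 alone (-0.30, adjusted P = 0.0860).

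*KLF3* held 38.3, 38.2, 41.2, and 37.5 CPM with EGF and 42.6, 38.5, 44.2, and 38.1 CPM with NRG-1, all below the lowest CSS library at 49.0 CPM. It fell by 0.38 (SE 0.07, adjusted P = 5.02e-05) and 0.31 (SE 0.07, adjusted P = 0.000766) on the log2 scale. Both calls were lost in batch 2 alone (adjusted P 0.0881 and 0.2).

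*KLF7* held 0.314, 0.319, 0.353, and 0.337 CPM after 4 hours of EGF, with 22 to 28 expected counts per library, and all lay below CSS. After NRG-1 it held 0.427, 0.323, 0.733, and 0.398 CPM, and replicate 1 of batch 2 lay within the CSS range. *KLF7* fell by 1.01 on the log2 scale with EGF (SE 0.22, adjusted P = 0.000257), and this call was lost in batch 2 alone (-0.81, adjusted P = 0.0655). With NRG-1 the value was -0.51 (SE 0.21, adjusted P = 0.0502), and the adjusted P was 0.0375 with the replicate block and 0.000819 without that high library, where the log2 fold change was -0.84.

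*KLF13* did not pass at 4 hours, at 0.22 (SE 0.12, adjusted P = 0.136) with EGF and 0.17 (SE 0.12, adjusted P = 0.292) with NRG-1. With the replicate block the same comparisons gave adjusted P values of 0.0049 and 0.0453, and EGF also passed when only the groups compared were fitted (adjusted P = 0.0159). It was the single SIN3A-binding or CtBP-binding member with a positive 4 hour value besides *KLF10*.

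Between 1 and 4 hours of EGF 9 members fell and 0 rose (21.5% and 22.5% of all tested genes), and 5 were DEGs (8.22%). Between 1 and 4 hours of NRG-1 6 fell and 0 rose (18.5% and 19%), and 4 were DEGs (6.79%). These comparisons do not use the CSS libraries. The decreases were largest for *KLF4* (-1.89, SE 0.09) and *KLF6* (-1.83, SE 0.11) with EGF and for *KLF10* (-2.18, SE 0.09) and *KLF11* (-1.502, SE 0.11) with NRG-1. *KLF5* fell by 0.39 with EGF (SE 0.12, adjusted P = 0.00946), a call lost in batch 1 alone (adjusted P = 0.335) and without replicate 1 of batch 2 of EGF at 1 hour (adjusted P = 0.0674). With NRG-1 *KLF5* had a value of 0.09 (SE 0.12, adjusted P = 0.644), and *KLF13* had values of -0.01 and 0.07 with the 2 ligands and was not called.

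EGF and NRG-1 were then compared directly at equal times. At 5 minutes 0 of 10 members differed (0% of all tested genes), with no unadjusted P below 0.05 in edgeR and 0 calls by DESeq2. At 1 hour 3 members were higher with EGF and 0 were lower (0.941% and 0.118%), and at 4 hours 2 were higher and 0 lower (1.25% and 0.412%). The 1 hour differences were 0.85 for *KLF4* (SE 0.09, adjusted P = 2.03e-07), 0.69 for *KLF6* (SE 0.10, adjusted P = 0.000112), and 0.63 for *KLF5* (SE 0.12, adjusted P = 0.00291) on the log2 scale. The libraries did not overlap for *KLF4* and *KLF6* (2.45% of all tested genes were higher without overlap) and overlapped for *KLF5*. In each of the 3 genes EGF was higher in 4 of 4 same-numbered pairs, which for *KLF4* and *KLF6* follows from the lack of overlap. *KLF7*, *KLF9*, and *KLF10*, not called, were also higher with EGF in 4 of 4 pairs, and *KLF11* was lower in 4 of 4. The labels do not state that these libraries are paired, and the share of all tested genes is not given here. No difference is read from the pair counts.

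The *KLF6* difference was 1.16 in batch 1 alone (adjusted P = 4.2e-09) and 0.27 in batch 2 alone (adjusted P = 0.908). It also missed the threshold when only those groups were fitted (0.70, adjusted P = 0.119). For *KLF4* batch 2 alone gave 0.83 (adjusted P = 0.0507). *KLF10* and *KLF11* differed by 0.16 (SE 0.08, adjusted P = 0.600) and -0.10 (SE 0.10, adjusted P = 0.687) at 1 hour. *KLF7* had a difference of 0.69 (SE 0.19, adjusted P = 0.0877), with an adjusted P of 0.0372 under the replicate block and 0.0256 with DESeq2.

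At 4 hours *KLF10* was higher with EGF by 0.77 (SE 0.08, adjusted P = 1.35e-06), or 1.70-fold, and batch 2 alone gave 0.64 (adjusted P = 0.102). *KLF4* was higher by 0.37 (SE 0.09, adjusted P = 0.0283). The *KLF4* call was lost without the batch term (adjusted P = 0.0765), in batch 2 alone (0.867), in the 3 TPM fits (0.227 to 0.277), and when any 1 of 6 of the 8 libraries was left out (0.0610 to 0.109). The 4 hour differences of *KLF5* (0.15, SE 0.12, adjusted P = 0.727) and *KLF6* (-0.08, SE 0.11, adjusted P = 0.838) did not pass.

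**Figure D5:**
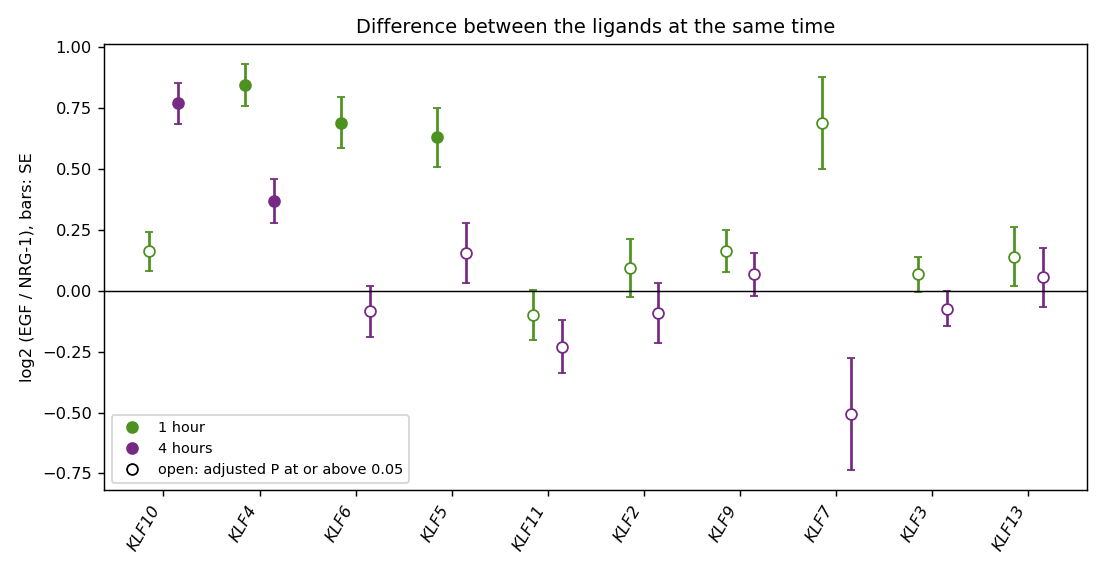
Log2 ratio of EGF to NRG-1 (bars, SE) for each KLF transcript at 1 hour (green) and 4 hours (purple), with open symbols for an adjusted P of 0.05 or more. *KLF4*, *KLF6*, and *KLF5* have filled symbols at 1 hour, at 0.85, 0.69, and 0.63, and *KLF10* and *KLF4* at 4 hours, at 0.77 and 0.37.

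The change from 1 to 4 hours with EGF was also compared with that with NRG-1 as an interaction. It passed for *KLF10* upward (0.61, SE 0.12, adjusted P = 0.00604) and for *KLF6* downward (-0.77, SE 0.15, adjusted P = 0.00578), that is 1 member in each direction, against 0.153% and 0.353% of all tested genes. The level of *KLF10* thus dropped by 1.57 with EGF and by 2.18 with NRG-1 on the log2 scale, and *KLF6* dropped by 1.83 with EGF and by 1.06 with NRG-1. In batch 2 alone neither passed (0.50 and -0.49, adjusted P = 1 for both), *KLF10* missed the threshold in the TPM fits (adjusted P 0.0826 to 0.139), and *KLF6* did so without the batch term (0.114) and when only the groups compared were fitted (0.111). *KLF7* (-1.19, adjusted P = 0.0716) and *KLF4* (-0.47, adjusted P = 0.0959) did not pass. Both passed in several alternatives, the replicate block among them (adjusted P 0.0406 and 0.0311).

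FBS, which retains the steroid hormones that charcoal removes, was also compared with CSS. In FBS 4 members were higher and 1 was lower, against 26% and 26.8% of all tested genes, and 0 were DEGs (8.71%). *KLF7* held 1.05, 1.37, 1.27, and 1.29 CPM in FBS and was higher by 0.90 (SE 0.19, adjusted P = 0.000183). *KLF5* (0.77, adjusted P = 1.02e-05), *KLF4* (0.69, adjusted P = 4.35e-07), and *KLF10* (0.25, adjusted P = 0.0123) were also higher in FBS. The *KLF10* difference was 0.05 in the TPM fits (adjusted P 0.665 to 0.880) and 0.12 in batch 2 alone (adjusted P = 0.442), and without replicate 2 of batch 1 of FBS its adjusted P was 0.0711.

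*KLF9* held 88.3, 72.2, 69.9, and 57.7 CPM in FBS, which overlapped the CSS range, and was lower by 0.27 on the log2 scale (-0.27, SE 0.09, adjusted P = 0.0122). The call was lost in each batch alone (adjusted P 0.0701 and 0.131) and without replicate 2 of batch 2 of FBS (-0.19, adjusted P = 0.0614). *KLF13* had a value of -0.23 (SE 0.12, adjusted P = 0.109), with an adjusted P of 0.00207 under the replicate block and 0.0328 without replicate 1 of batch 1 of FBS. *KLF2* had a value of 0.28 (SE 0.12, adjusted P = 0.0555) and passed in 4 of 20 alternatives, DESeq2 among them (adjusted P = 0.0464).

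Promoter sequences from the RefSeq table (GRCh38.p14) were matched by symbol for 8 members, and *KLF3* and *KLF10* were not included. The 250 bases before the annotated start were searched on both strands. The CACCC/GC-type pattern CCNCNCCC, which overlaps in part with the GC box GGGCGG, occurred in 7 of 8 members, all but *KLF9*, beside 56.4% of all genes with an entry. GGGCGG occurred in the same 7 (46.2%). The cAMP response element TGACGTCA occurred in *KLF11* (2.03%), its shorter form TGACG in *KLF4*, *KLF5*, *KLF11*, and *KLF13* (24.9%), and a CArG box, the binding pattern of SRF, at 1 start of *KLF7* (1.44%). The AP-1 pattern TGANTCA, the ETS pattern CCGGAAG, and the forkhead pattern GTAAACA were in 0 of 8 (8.06%, 10.2%, and 3.66% of genes).

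The upstream windows of *KLF4* and *KLF6*, the activators with the largest rise at 1 hour, are shown beside those of *KLF9*, the member without a CCNCNCCC match, and of *KLF11*. Each is read 5′ to 3′ on the strand of the gene from GRCh38.p14. Capitals mark CCNCNCCC on either strand in the first 3 sequences and TGACGTCA in *KLF11*.
KLF4 (chr9:107489770-107490019, minus strand): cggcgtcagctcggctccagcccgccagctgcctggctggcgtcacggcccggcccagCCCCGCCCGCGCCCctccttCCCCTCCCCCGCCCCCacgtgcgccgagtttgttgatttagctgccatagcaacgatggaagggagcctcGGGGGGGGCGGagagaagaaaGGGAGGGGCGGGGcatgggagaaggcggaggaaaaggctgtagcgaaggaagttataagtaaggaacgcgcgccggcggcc
KLF6 (chr10:3785210-3785459, minus strand): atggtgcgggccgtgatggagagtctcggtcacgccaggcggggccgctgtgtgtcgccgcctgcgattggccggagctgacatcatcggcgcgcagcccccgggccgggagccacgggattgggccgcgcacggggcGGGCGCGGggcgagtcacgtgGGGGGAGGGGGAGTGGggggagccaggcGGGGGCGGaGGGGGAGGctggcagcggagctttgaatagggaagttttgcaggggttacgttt
KLF9 (chr9:70414658-70414907, minus strand): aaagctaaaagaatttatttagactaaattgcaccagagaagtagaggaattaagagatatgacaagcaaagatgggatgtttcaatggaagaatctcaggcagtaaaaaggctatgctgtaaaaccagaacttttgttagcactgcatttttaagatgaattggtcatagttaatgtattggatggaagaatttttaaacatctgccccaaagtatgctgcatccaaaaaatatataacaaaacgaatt
KLF11 (chr2:10043971-10044220, plus strand): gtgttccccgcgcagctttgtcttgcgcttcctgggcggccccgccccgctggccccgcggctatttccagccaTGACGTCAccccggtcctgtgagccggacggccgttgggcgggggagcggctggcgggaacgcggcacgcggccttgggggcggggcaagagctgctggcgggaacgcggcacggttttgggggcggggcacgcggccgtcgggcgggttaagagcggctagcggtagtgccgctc

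*KLF4* had 10 overlapping CCNCNCCC matches and *KLF6* had 6. The G and C share was 69.2% in *KLF4*, 72.4% in *KLF6*, 74.4% in *KLF11*, and 32.4% in *KLF9*. A match describes letters of the window and not binding.

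The other genes of the KLF family, and genes that act with it, were counted from lists by function. For all lists below, the shares of all tested genes that rose and fell were 6% and 3.51% at 1 hour and 24.6% and 24.6% at 4 hours with EGF, and 4.45% and 2.28% at 1 hour and 21.6% and 21% at 4 hours with NRG-1. Of 8 other KLF genes 7 were in the tables and 6 were tested. With EGF 1 of 6 rose and 0 fell at 1 hour, and 3 rose and 2 fell at 4 hours. With NRG-1 the counts were 1 and 0 at 1 hour and 2 and 2 at 4 hours. The median log2 fold change of the 6 at 4 hours was 0.79 with EGF and 0.28 with NRG-1, where all tested genes had -0.02 and -0.01. *KLF14*, a SIN3A-type member, rose at 4 hours by 2.72 on the log2 scale with EGF (SE 0.33) and 2.39 with NRG-1 (SE 0.34), at low counts of 21 to 42 and 17 to 34 per library against 4 to 6 in CSS. *KLF8*, a CtBP-type member like *KLF3*, fell by 1.85 with EGF (SE 0.17) and by 1.43 with NRG-1 (SE 0.16).

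Of the 9 SP genes, the nearest zinc finger relatives of the KLFs, 7 were tested. At 1 hour 0 changed with either ligand by edgeR. An unadjusted P below 0.05 was found in 0 with EGF and in 1 with NRG-1 (*SP8*, named after its value was seen), and DESeq2 called 1 and 0. At 4 hours 0 rose and 4 fell with EGF while 1 rose and 3 fell with NRG-1 (medians -0.20 and -0.19). *SP4* fell by 1.15 with EGF and by 1.09 with NRG-1 (SE 0.08 each), and *SP9* fell by 1.16 with EGF (SE 0.32) and had a value of -0.39 with NRG-1 (adjusted P = 0.324).

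Among 11 cofactors, including the SIN3, CtBP, histone deacetylase, and acetyltransferase genes, 0 changed at 1 hour with either ligand by edgeR, 1 had an unadjusted P below 0.05 with EGF (*SIN3A*, named after its value was seen) and 2 with NRG-1, and DESeq2 called 1 with each ligand. At 4 hours 4 rose and 1 fell with EGF, and 4 rose and 2 fell with NRG-1 (medians 0.03 and 0.10). *CTBP2*, a corepressor that KLF3 binds, rose by 0.31 and 0.39 on the log2 scale with EGF and NRG-1. *CREBBP*, an acetyltransferase gene, fell by 0.37 with NRG-1 (SE 0.15, adjusted P = 0.047) and had a value of -0.19 with EGF (adjusted P = 0.304). These were changes of small size next to those of *KLF10* or *KLF4*.

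Of 12 regulators known to act upstream of KLF genes (ERK5 cascade, MEF2, SRF, ternary complex factor, and FOXO genes), 3 rose and 0 fell at 1 hour with each ligand. At 4 hours 3 rose and 7 fell with EGF, and 2 rose and 7 fell with NRG-1 (medians -0.31 and -0.30). *SRF*, which drives immediate early genes through CArG boxes, was at 1 hour higher by 2.15 after EGF and by 1.61 after NRG-1 (SE 0.09 each). *FOXO3*, which in other cells activates *KLF6* and *KLF2* transcription under low growth factor signaling, had values of -0.06 and -0.24 at 1 hour (adjusted P 0.883 and 0.368) and fell by 0.87 and 1.04 at 4 hours (SE 0.13 each).

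Of 6 ubiquitin ligases for KLF proteins 0 changed at 1 hour by edgeR or by DESeq2, with an unadjusted P below 0.05 in 2 with EGF and 0 with NRG-1. At 4 hours 5 rose and 1 fell with EGF, and 3 rose and 1 fell with NRG-1 (medians 0.26 and 0.22). *SMURF1* rose by 0.84 and 0.64, and *SIAH1* fell by 0.76 and 0.63 on the log2 scale (EGF and NRG-1).

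Finally, the gene outside the KLF and SP families whose 8 group means of log2 CPM were most correlated with each member was identified among 12004 genes. It was *EGR3* for *KLF10* (r = 0.99), *DDX20* for *KLF4* (r = 0.99), *SRF* for *KLF6* (r = 0.99), *THBS1* for *KLF5* (r = 0.99), and *TMEM55B* for *KLF11* (r = 0.99). For the others it was *FAM60A* for *KLF2* (r = 0.92), *CPEB3* for *KLF7* (r = 0.98), *ADM2* for *KLF9* (r = 1.00), *UPF3A* for *KLF3* (r = 0.99), and *AP5B1* for *KLF13* (r = 0.99). These values rest on 8 points from the same libraries and are the highest of many, so they serve as a description. Over the 32 single libraries the same pairs had r = 0.99 for *EGR3*, 0.97 for *DDX20*, 0.94 for *SRF*, 0.83 for *THBS1*, 0.93 for *TMEM55B*, 0.57 for *FAM60A*, 0.82 for *CPEB3*, 0.82 for *ADM2*, 0.66 for *UPF3A*, and 0.89 for *AP5B1*. A shared pattern did not mean a shared size: *EGR3* averaged 502 CPM after 1 hour of EGF and 0.126 CPM in CSS, a wider span than that of *KLF10*.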

How the data were processed

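LNCaP RNA-Seq libraries (8 groups of 4) were placed by label into group, batch, and replicate. Per the labels, polyA RNA was captured and sequenced with strand information, and the authors trimmed reads with Trimmomatic 0.36 and used STAR 2.7.0f and RSEM with hg19. They deposited RSEM expected counts per gene, not normalized for depth, and TPM values, which the authors scaled for transcript length and library total. Replicates were not pooled. For 9 of the 10 members the expected counts were whole numbers in every library, and *KLF3* held fractions, as RSEM gives where reads map to more than 1 place.

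Expected counts were rounded, genes reaching 5 counts in 3 or more libraries entered the fit, and edgeR 4.0.16 (R 4.3.3) was run with TMM, group, and batch terms over all 32 libraries. P values were adjusted by Benjamini-Hochberg within each of 13 comparisons. SEs were taken from the log2 fold change and its F statistic. Alternatives were DESeq2 1.42.0, limma 3.58.1 on log2 TPM, other filters, a replicate block, single batches, and each library left out. The labels give batch and replicate numbers and do not state that same-numbered libraries of different groups are paired. Deviations of same-numbered libraries of one batch from the group means correlated in all 112 pairs (r 0.133 to 0.571), which includes the batch difference. With the batch means removed r was -0.155 to 0.371, and it exceeded 0.1 in 35 pairs.

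Named genes were all members, for each the most correlated gene (average log2 CPM 1 or higher), and up to 2 genes per list (5 lists) with the largest change at 1 or 4 hours. *SP8* and *SIN3A* were named outside this rule. Members and lists were chosen with earlier results of these data known. At these depths *KLF7* held 22 to 102 expected counts per library and each other member at least 102. The fits were run on simulated counts with 200 genes changed in 1 group. Of these edgeR and DESeq2 each recovered 199, and limma on log2 TPM recovered 171. The simulation gave every gene the same spread and held no batch or replicate effect, so it cannot show how the fits handle such effects.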

Additional observations from a re-analysis of the deposited data

Results flagged for a closer look

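Within the 80 sets of 4 libraries (10 members by 8 groups), 4 held a library far from the others, and about 4 would be flagged by chance. Replicate 2 of batch 2 was low for *KLF7* in CSS (0.5223 CPM, the others 0.702 to 0.738), for *KLF9* after 5 minutes of NRG-1 (74.75 CPM, the others 90.6 to 92.7), and for *KLF13* after 5 minutes of NRG-1 (38.57 CPM, the others 51.7 to 53.2). Replicate 1 of batch 2 was high for *KLF11* after 4 hours of NRG-1 (17.03 CPM, the others 13.9 to 14.4).

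The ligands differed by edgeR at 1 hour for *KLF4* (0.845 on the log2 scale), *KLF5* (0.630), and *KLF6* (0.691), and at 4 hours for *KLF4* (0.370) and *KLF10* (0.770). The change from 1 to 4 hours differed between the ligands for *KLF6* (-0.775) and *KLF10* (0.608). The response of *KLF5* to 1 hour of EGF differed between batches by 0.891.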

How the results depend on the processing

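Of 130 member results, 53 were called, 34 of these kept their call in every alternative, 19 lost it in at least 1, and 0 reversed; of 77 not called, 15 passed in at least 1. The count of member DEGs after 4 hours of EGF was 2 in the main fit and 1 in each of the 3 limma fits of log2 TPM, and 1 to 3 with a library left out; it was 1 without replicate 1 of batch 1 of CSS and without either batch 1 library of EGF at 4 hours. FBS against CSS gave 0 DEGs, 1 in batch 2 alone, and 0 to 1 with a library left out (1 without replicate 1 of batch 1 of FBS). EGF against NRG-1 at 1 hour gave 0, and 1 in batch 1 alone. The interaction gave 0, and 1 with DESeq2, with the replicate block, and in batch 1 alone, and 0 to 1 with a library left out (1 without replicate 1 of batch 1 of NRG-1 at 1 hour or replicate 2 of batch 1 of NRG-1 at 4 hours). With no fold-change limit the counts were 7 for EGF and 6 for NRG-1 at 1 hour, 7 and 6 at 4 hours, 5 for FBS, 3 and 2 for EGF against NRG-1 at 1 and 4 hours, 9 for 4 hours against 1 hour of EGF, and 2 for the interaction. The cause was not tested, apart from the limit's own construction. The replicate block changed no other call than those given beside the results. *KLF7* had the lowest counts of the members, 22 to 102 per library.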
